A study of Homo sapiens with 9 samples.

Results

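The 9 genes described here, HLA-B, HLA-C, HLA-E, B2M, TAP1, TAP2, TAPBP, ERAP1 and NLRC5, encode MHC class I molecules and the machinery that loads them with peptide. They were chosen by gene name among the rows on chromosomes 1 to 22, and all 9 were found once in each deposited table, of 58735 genes in all. Messenger RNA was sequenced from PaTu 8988t, an established human pancreatic adenocarcinoma line, after contact with extracellular matrix, in 9 libraries. The 3 groups, of 3 libraries each, were a matrix labelled "CPXM2R213A OE ECM", with the R213A form of the secreted carboxypeptidase-like protein CPXM2 (called R213A below), a matrix labelled "CPXM2WT OE ECM", with its wild-type form (wild type), and a matrix labelled "Ctrl ECM" (control). All groups were kept in DMEM with serum and penicillin/streptomycin. The labels do not say which cells laid down the matrix, how long the tumour cells met it, or whether a group's libraries stem from separate cultures, so the spread behind each p-value may be technical only. The series title places the question in the effect of collagen aligned by CPXM2 on gene expression and signalling.

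MHC class I molecules carry short peptides from inside the cell to its surface, where CD8+ T cells and natural killer cells read them. Each is a heavy chain (such as HLA-B, HLA-C or HLA-E) bound to the small invariant chain B2M. Peptides cut by the proteasome are pumped into the endoplasmic reticulum by the transporter TAP1-TAP2, trimmed there by ERAP1 and loaded onto the heavy chain with the help of tapasin (TAPBP). NLRC5 is a transcriptional coactivator of these genes, which are also known to respond to interferons, through IRF factors, and to NF-kB. Pancreatic tumours are known for low or internalised surface class I, a protein property that RNA values do not measure.

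The promoters of 4 genes are shown because they belong to genes of 3 roles, the heavy chains HLA-B and HLA-C, the light chain B2M and the transporter subunit TAP1. The sequences are the 250 bases before the start of the gene, 5′ to 3′ on the gene's own strand, from RefSeq on GRCh38.p14. Such windows were matched for 7 of the 9 genes, which leaves HLA-E and NLRC5. Capitals mark, on either strand, the NF-kB-like word GGGGATTCC, the interferon regulatory factor core AANNGAAA, where overlapping matches run together, and the CRE-like core TGACGC.
HLA-B promoter, chr6:31357180-31357429, minus strand: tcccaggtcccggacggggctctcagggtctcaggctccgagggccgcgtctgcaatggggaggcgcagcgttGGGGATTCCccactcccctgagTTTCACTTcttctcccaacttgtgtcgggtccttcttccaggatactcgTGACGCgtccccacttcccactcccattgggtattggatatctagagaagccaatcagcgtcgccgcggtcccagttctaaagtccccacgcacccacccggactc
HLA-C promoter, chr6:31272093-31272342, minus strand: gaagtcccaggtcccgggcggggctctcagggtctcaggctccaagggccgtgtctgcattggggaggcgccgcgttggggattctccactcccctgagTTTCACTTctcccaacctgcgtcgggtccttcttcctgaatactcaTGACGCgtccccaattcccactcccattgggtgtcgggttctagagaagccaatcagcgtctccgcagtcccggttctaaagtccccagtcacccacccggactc
B2M promoter, chr15:44711267-44711516, plus strand: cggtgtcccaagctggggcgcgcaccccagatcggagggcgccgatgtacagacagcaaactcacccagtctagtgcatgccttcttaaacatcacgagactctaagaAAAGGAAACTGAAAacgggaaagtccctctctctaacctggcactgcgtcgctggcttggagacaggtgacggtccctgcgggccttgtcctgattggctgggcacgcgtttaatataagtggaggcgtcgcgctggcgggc
TAP1 promoter, chr6:32853705-32853954, minus strand: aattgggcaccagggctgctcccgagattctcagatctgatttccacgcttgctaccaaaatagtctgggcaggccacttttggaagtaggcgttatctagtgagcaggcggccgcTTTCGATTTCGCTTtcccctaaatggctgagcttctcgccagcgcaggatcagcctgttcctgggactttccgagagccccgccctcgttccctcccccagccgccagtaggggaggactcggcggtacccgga

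The HLA-B and HLA-C windows were identical at 226 of 254 aligned positions (89.0%). The NF-kB-like word began at -177 in HLA-B, counted from the start, and was not in the other matched windows of the 9 genes, against 0.253% of 35116 windows of this length. Only this exact word was searched, so its absence does not mean that a window lacks an NF-kB-like site. Similar words that were not counted include ggggattctcc in the HLA-C window, gggactttcc in that of TAP1 and gggaaagtcc in that of B2M. The 7 genes had 9 windows, since ERAP1 and TAP1 each had a second start. The word AANNGAAA was found in 7 of the 9 windows, 1 for each gene and not in the other window of ERAP1 and TAP1, against 20.3% of all windows. TGACGC was found in HLA-B, HLA-C and TAP2, against 7.67% of windows, and the CCAAT box, which is not capitalised, in 1 window each of B2M, ERAP1, HLA-B, HLA-C and TAP1, against 32% of windows. These are matches of letters and not measured binding sites.

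The libraries held 15951927 to 18312806 reads, with reads at 20059 to 21401 genes, and 1.81% to 2.38% of them came from mitochondrial transcripts. Levels are FPKM as deposited, which scale fragments by gene length and by a factor for each library. They came in 2 tables: one with R213A 1, R213A 3, wild type 1 and control 1 (the 4-library table) and one with R213A 2, wild type 2, wild type 3, control 2 and control 3 (the 5-library table). The factor did not follow depth alone. FPKM times length per read was 60.9 in control 2 and 53.3 in wild type 2, at 18211216 and 18301882 reads. Which library is highest or lowest can therefore depend on this scaling. Pairs of libraries from different tables differed by more than 2-fold on the log2(FPKM + 1) scale at 1663 to 5434 of the 11193 genes tested, and pairs within the 4-library table at 387 to 2316. In the 5-library table control 2 stood apart, with 376 to 416 such genes against each of the other 4 libraries, while the other pairs had 41 to 66. Differences were therefore formed within tables, and values of the 5-library table are also given without control 2 where a comparison with control turns on it. Of 6 epithelial markers, KRT18 (211 to 647 FPKM) and KRT8 (104 to 300 FPKM) were high and EPCAM was between 1.84 and 6.57 FPKM. KRT7 (at most 0.468 FPKM), CDH1 (at most 0.136) and KRT19 (at most 0.0717) were at or near 0, so 3 of the 6 were present.

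The heavy chains were abundant in every group. HLA-E, a non-classical heavy chain that presents leader peptides of other class I molecules to natural killer cells, had the highest mean of the 9 genes (ENSG00000204592, hg38 chr6:30489467-30494205, plus strand). Its FPKM was 116, 64.9 and 90.7 in R213A 1 to 3, against 111, 65.6 and 66.1 in wild type 1 to 3 and 64.5, 103 and 68.8 in control 1 to 3. The 3 groups overlapped: the high values were R213A 1 and wild type 1 in the 4-library table and control 2 in the 5-library table. HLA-C, a classical heavy chain that also engages killer-cell immunoglobulin-like receptors (ENSG00000204525, chr6:31268749-31272130, minus strand), had an FPKM of 60.2, 30.9 and 38.2 in R213A 1 to 3, against 47.6, 34.1 and 38.5 in wild type and 22.6, 34.3 and 35.2 in control. R213A 1 was the highest library and control 1 the lowest, and the other 7 libraries lay between them in all groups.

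HLA-B, a classical heavy chain and the most polymorphic of them, was the lowest of the 3 (ENSG00000234745, chr6:31269491-31357188, minus strand). Its FPKM was 17.5, 15.2 and 13.4 in R213A 1 to 3, against 17.4, 13.9 and 14.2 in wild type and 6.22, 18.4 and 12.4 in control. The control libraries held both extremes, control 1 the lowest and control 2 the highest, so that R213A and wild type lay inside their range. By reads, at a similar depth, wild type 1 (1028) exceeded control 2 (922), so the upper extreme depends on the deposited scaling. Means were 15.3 ± 2.07 FPKM in R213A, 15.2 ± 1.96 in wild type and 12.4 ± 6.09 in control (SD, n = 3 each). The listed span of HLA-B covers 87698 bases and contains 2640 of the 3382 bases of HLA-C on the same strand, and HLA genes have near-identical copies, so how reads were shared among them is uncertain. HLA-C exceeded HLA-B in all 9 libraries, by a ratio of 3.44, 2.04 and 2.86 in R213A, 2.73, 2.45 and 2.72 in wild type and 3.63, 1.86 and 2.83 in control.

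B2M, the light chain shared by all class I molecules (ENSG00000166710, chr15:44711487-44718877, plus strand), followed another pattern from the heavy chains. Its FPKM was 59.1, 70.5 and 65.0 in R213A 1 to 3, against 40.4, 71.6 and 71.9 in wild type and 57.7, 76.5 and 69.4 in control. Wild type 1 was the lowest library, where HLA-B, HLA-C and HLA-E were at or near their highest. The summed FPKM of the 3 heavy chains per FPKM of B2M was 3.28, 1.57 and 2.19 in R213A, 4.36, 1.59 and 1.65 in wild type and 1.62, 2.04 and 1.68 in control. The size of this ratio rests on the listed gene lengths. B2M is listed with 6079 bases, against a median of 1012 over its GENCODE 29 coding transcripts, so the ratio does not show more heavy-chain than B2M RNA. In the 4-library table this ratio was higher in R213A 1, R213A 3 and wild type 1 than in control 1, and in the 5-library table it was highest in control 2.

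**Figure D1:**
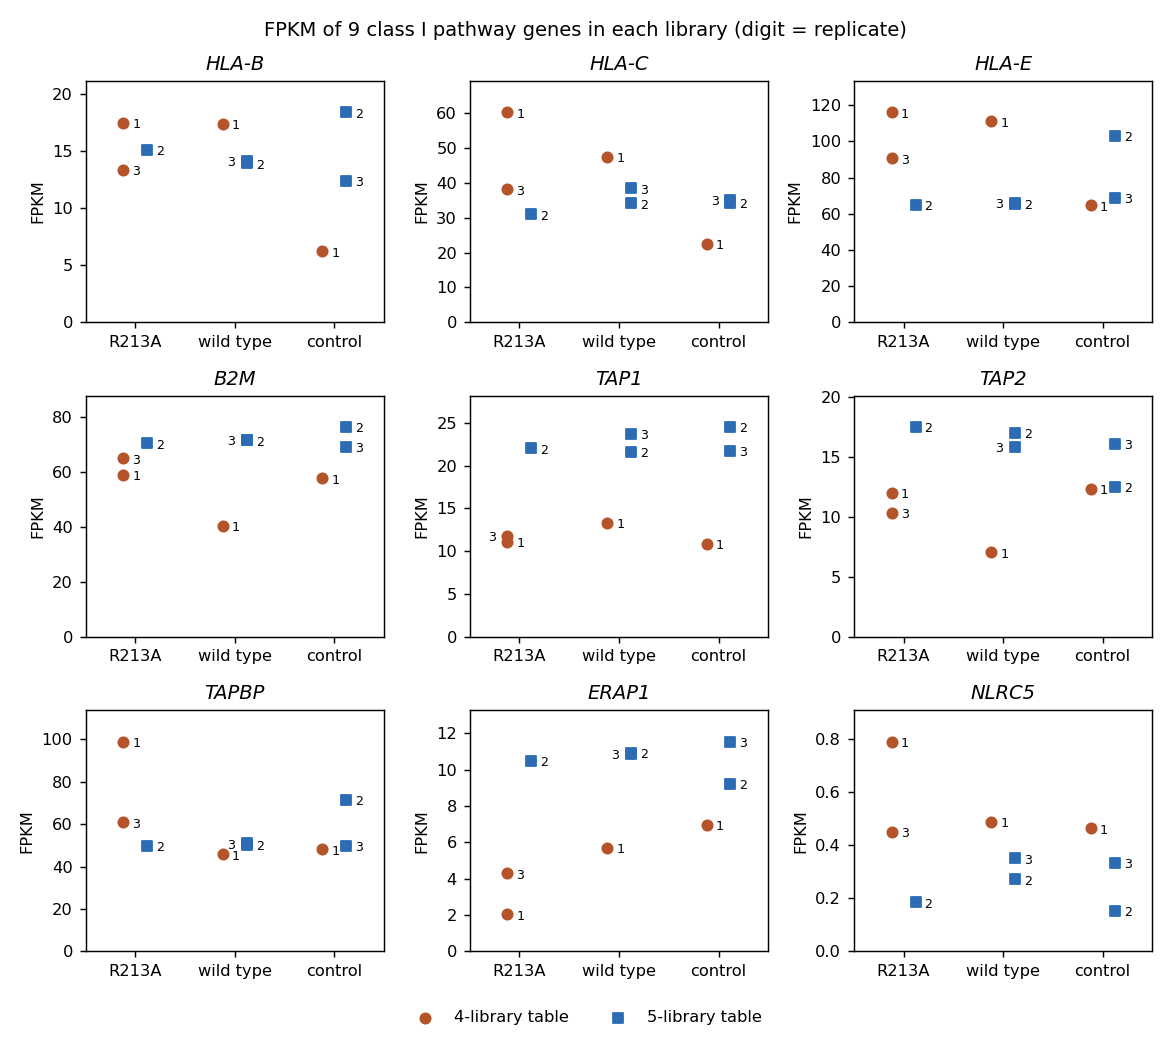
Deposited FPKM of the 9 class I pathway genes in each library, with 1 panel a gene, the groups R213A, wild type and control from left to right, circles for the 4-library table, squares for the 5-library table and the replicate number beside each point. For B2M, TAP1, TAP2 and ERAP1 all circles lie below all squares, and control 1 is the lowest library of HLA-B and HLA-C.

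The transporter subunits separated by table more than by matrix. TAP1, which with TAP2 pumps cytosolic peptides into the endoplasmic reticulum (ENSG00000168394, chr6:32845209-32853978, minus strand), had an FPKM of 11.1, 22.03 and 11.8 in R213A 1 to 3, against 13.3, 21.6 and 23.7 in wild type and 10.8, 24.5 and 21.7 in control. The 4 libraries of the 4-library table were all below the 5 libraries of the other, whatever the matrix. TAP2 (ENSG00000204267, chr6:32821833-32838780, minus strand) had an FPKM of 11.98, 17.5 and 10.3 in R213A 1 to 3, against 7.04, 17.02 and 15.8 in wild type and 12.3, 12.5 and 16.1 in control. Wild type 1 was its lowest library, and control 2 the lowest of the 5-library table. The gap between tables was narrow for TAP2, 12.3 FPKM in control 1 against 12.5 in control 2. By reads, control 1 (1475) was above control 2 (1312), so the split of TAP2 by table depends on the deposited scaling. The ratio of TAP1 to TAP2 ranged from 0.881 in control 1 to 1.96 in control 2. TAP1 shares bases with PSMB9 and an antisense RNA on the opposite strand, and TAP2 with another protein-coding entry on its own strand, so reads there may be shared.

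TAPBP, tapasin, which bridges the transporter to the empty heavy chain and edits its peptide (ENSG00000231925, chr6:33299694-33314387, minus strand), had an FPKM of 98.9, 49.9 and 60.9 in R213A 1 to 3, against 45.9, 50.2 and 51.0 in wild type and 48.2, 71.5 and 49.7 in control. R213A 1 was the highest library, followed by control 2 and R213A 3, and the 3 wild-type libraries lay within 45.9 to 51.0 FPKM. ERAP1, the aminopeptidase that trims peptide precursors to the length class I can hold (ENSG00000164307, chr5:96760810-96808100, minus strand), had an FPKM of 2.04, 10.5 and 4.29 in R213A 1 to 3, against 5.70, 10.9 and 10.9 in wild type and 6.95, 9.21 and 11.5 in control. Its 2 lowest libraries were R213A 1 and R213A 3, while R213A 2 lay among the wild-type and control libraries of its table. ERAP1 had the widest range of the 8 genes tested, 5.66-fold between R213A 1 and control 3, and it overlaps CAST on the opposite strand.

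NLRC5, the coactivator (ENSG00000140853, chr16:56989485-57083531, plus strand), was low in all libraries. Its FPKM was 0.791, 0.185 and 0.452 in R213A 1 to 3, against 0.489, 0.271 and 0.351 in wild type and 0.465, 0.152 and 0.334 in control, from 31 to 133 reads. The groups overlapped, and the 4-library table was above the 5-library table. NLRC5 was below the filter of a mean of 1 FPKM and was not tested, so the tests cover 8 of the 9 genes. CIITA, its class II counterpart, was at most 0.0462 FPKM.

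By mean FPKM over the 9 libraries the order was HLA-E, B2M, TAPBP, HLA-C, TAP1, HLA-B, TAP2, ERAP1 and NLRC5. HLA-E stood above B2M in 5 of 9 libraries and HLA-B above TAP2 in 4 of 9, so these neighbours were not separated. B2M exceeded TAPBP in 7, TAPBP exceeded HLA-C in 8 and TAP1 exceeded HLA-B in 6 of 9 libraries. The steps from HLA-C to TAP1, from TAP2 to ERAP1 and from ERAP1 to NLRC5 held in 9 of 9. HLA-E was higher than 95.5% of the genes tested and ERAP1 higher than 54.1%. The order rests on the gene lengths in the tables, which can be far above that of a typical transcript: B2M is listed with 6079 bases, against a median of 1012 bases over its GENCODE 29 coding transcripts.

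Against the control matrix, the R213A matrix gave no difference in the 8 tested genes that passed the threshold. The largest differences over both tables were HLA-B at 0.49 ± 0.31 and ERAP1 at -0.50 ± 0.28 on the log2(FPKM + 1) scale (SE; 3 R213A and 3 control libraries), both with an adjusted p of 0.690 in limma with Benjamini-Hochberg adjustment. Their 95% intervals were -0.21 to 1.196 for HLA-B and -1.12 to 0.11 for ERAP1. HLA-C differed by 0.41 ± 0.29, TAPBP by 0.25 ± 0.29 and TAP2 by 0.15 ± 0.23, while B2M (0.09), HLA-E (0.08) and TAP1 (-0.02) were nearest to 0. With limma 0 of the 8 genes had an adjusted p under 0.05, where 0% of all 11193 genes did, and 0 had an unadjusted p under 0.05, where 341 genes (3.05%) did. limma-voom on recovered reads also called 0 genes. The median of the 8 differences was 0.12, and that of all genes tested -0.02.

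The positive values of the heavy chains came from the 4-library table, where R213A 1 and 3 met a single control library. There HLA-B differed by 1.17, HLA-C by 1.06, HLA-E by 0.66 and TAPBP by 0.68, against 0.00, -0.16, -0.37 and -0.25 in the other table, and 0.27, -0.18, -0.08 and 0.01 in that table without control 2. The 5-library table holds a single R213A library, R213A 2, and without control 2 it is set against control 3 alone. ERAP1 differed by -0.99 among the 4 libraries, by 0.02 among the 5 and by -0.12 among those without control 2. A difference above 0.5 in the 4-library table was found for 4 of the 8 genes, against 21.9% of all genes, and 1 below -0.5, ERAP1, against 21.7%. Among the 5 libraries of the other table, 0 of the 8 exceeded 0.5, where 2.31% of all genes did. HLA-B was the 1 gene with the same sign in both tables (48.7% of all genes), higher in R213A in both (21.6%), though its value in the 5-library table was within 0.01 of 0. Without control 1, whose heavy-chain values were the lowest of its table, the differences over both tables were -0.09 for HLA-B and -0.08 for HLA-C. Single libraries also moved these values in other ways. HLA-B was 0.74 without control 2, and HLA-C was 0.19 without R213A 1 and 0.73 without R213A 2. ERAP1 was -0.24 without R213A 1, -0.21 without control 1 and -0.88 without R213A 2.

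**Figure D2:**
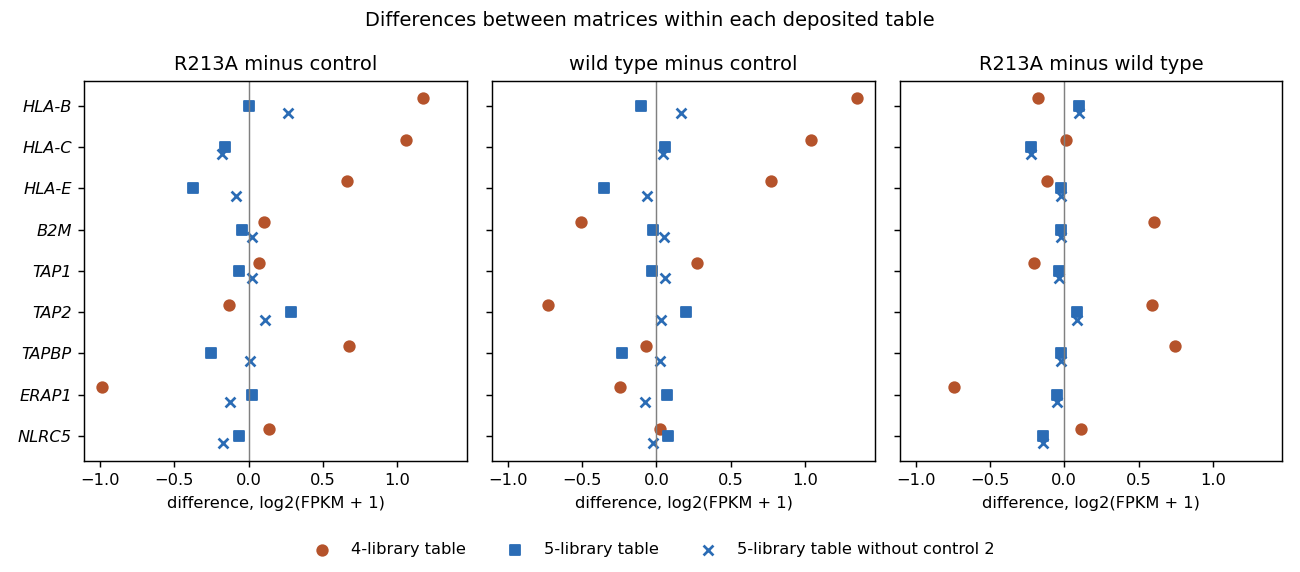
Differences in log2(FPKM + 1) of the 9 genes within each deposited table, for R213A minus control, wild type minus control and R213A minus wild type, with circles for the 4-library table, squares for the 5-library table and crosses for the 5-library table without control 2. Circles of HLA-B, HLA-C and HLA-E lie between 0.66 and 1.35 in both comparisons with control, while squares and crosses lie between -0.37 and 0.27.

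Whether a difference was the same in both tables was tested directly, as an interaction of group and table. For R213A against control the departure was 1.17 ± 0.41 for HLA-B and 1.22 ± 0.43 for HLA-C, with an adjusted p of 0.386 for both in limma. These were the 2 of 8 genes with an unadjusted p under 0.05, against 12.4% of all genes, and 0% of genes passed the adjusted threshold. ERAP1 departed by -1.01 ± 0.47 and HLA-E by 1.03 ± 0.45.

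The wild-type matrix was compared with the same 3 control libraries, so its values are not independent of those of R213A against control. HLA-C differed by 0.39 ± 0.28 (95% interval -0.24 to 1.02) and HLA-B by 0.38 ± 0.30 (-0.29 to 1.06), with adjusted p-values of 0.757 and 0.760 in limma. B2M (-0.18), TAPBP (-0.18), TAP2 (-0.11), TAP1 (0.07), ERAP1 (-0.03) and HLA-E (0.02) were within 0.2 of 0. With limma 0 of the 8 genes passed the adjusted threshold, as did 0% of all genes, and 0 had an unadjusted p under 0.05, against 503 genes (4.49%) in all. limma-voom called 0 genes. The median of the 8 genes was -0.01, beside -0.03 over all genes.

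Within the 4-library table, wild type 1 exceeded control 1 by 1.35 for HLA-B, 1.04 for HLA-C and 0.77 for HLA-E, and was below it by -0.73 for TAP2 and -0.50 for B2M. In the 5-library table the same differences were -0.10, 0.06, -0.35, 0.20 and -0.02, and without control 2 they were 0.16, 0.04, -0.06, 0.03 and 0.05. Thus 3 of the 8 genes exceeded 0.5 in the 4-library table (21.3% of all genes) and 2 were below -0.5 (26.1%), while 0 exceeded 0.5 in the 5-library table (2.33%). The sign was shared by both tables for HLA-C, B2M and TAPBP, 3 of 8 against 51.4% of all genes, and HLA-C was the 1 gene higher in both (22.5%). Without control 1, the differences over both tables were -0.05 for HLA-B and 0.02 for HLA-C. HLA-B was 0.09 without wild type 1 and 0.69 without control 2.

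The departure between tables was largest here for HLA-B, at 1.45 ± 0.41 (adjusted p = 0.115 in limma). HLA-E departed by 1.13 ± 0.45 and TAP2 by -0.92 ± 0.34, and these 3 of 8 genes had an unadjusted p under 0.05, against 20.7% of all genes. At the adjusted threshold 125 genes (1.12%) departed, and 0 of the 8 were among them.

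Between the R213A and the wild-type matrix, the largest differences were ERAP1 at -0.47 ± 0.28 (95% interval -1.09 to 0.15) and TAPBP at 0.42 ± 0.29 (-0.22 to 1.07), both with an adjusted p of 0.996 in limma. B2M differed by 0.27 ± 0.21 and TAP2 by 0.26 ± 0.23, while HLA-B (0.11), HLA-E (0.05), HLA-C (0.02) and TAP1 (-0.10) were nearer to 0. With limma 0 of the 8 genes passed the adjusted threshold, where 0% of all genes did, and 0 had an unadjusted p under 0.05, where 117 (1.05%) did. limma-voom called 0 genes. The median was 0.08, beside 0.01 over all genes.

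These values, too, came from the 4-library table. TAPBP differed there by 0.75, B2M by 0.61, TAP2 by 0.59 and ERAP1 by -0.74, against -0.02, -0.02, 0.08 and -0.05 in the 5-library table. That made 3 of 8 genes above 0.5 (16.4% of all genes) and 1 below -0.5 (10.7%) in the 4-library table, and 0 above 0.5 in the 5-library table (0.608%). HLA-E, TAP1, TAP2 and ERAP1 had the same sign in both tables, 4 of 8 against 45.6% of all genes, and TAP2 was the 1 gene higher in R213A in both (22.7%). The departure between tables had an unadjusted p under 0.05 for 0 of the 8 genes and for 7.25% of all genes, and 0% passed after adjustment. Without R213A 1 the differences over both tables were 0.18 for TAPBP and -0.20 for ERAP1, and without R213A 2 they were 0.80 and -0.85. The largest difference in size of a heavy chain between R213A and wild type in either table was -0.22, for HLA-C in the 5-library table.

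**Figure D3:**
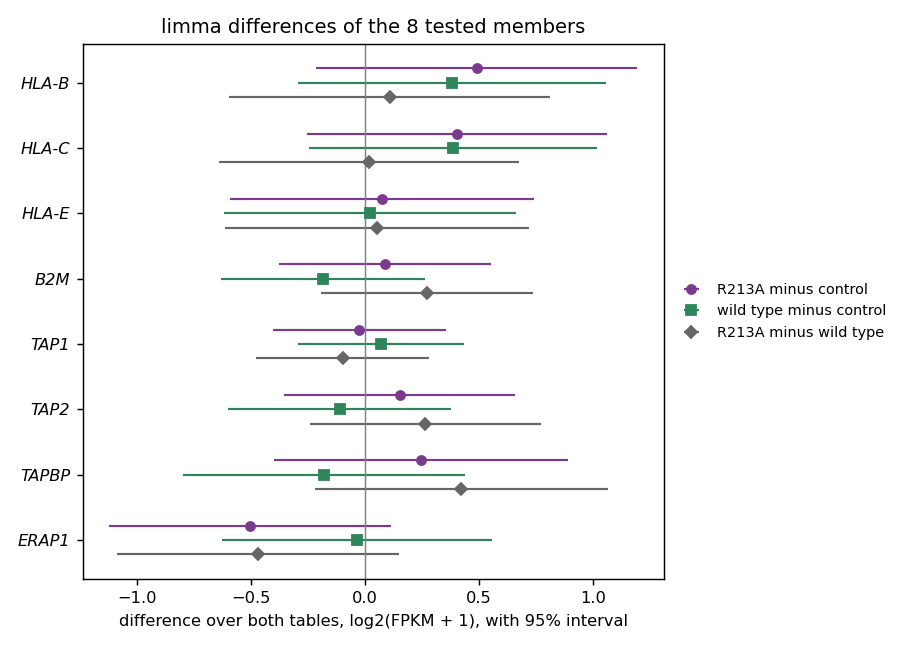
Differences over both tables in log2(FPKM + 1) from limma for the 8 tested genes, with bars for the 95% interval, for R213A minus control (circles), wild type minus control (squares) and R213A minus wild type (diamonds). All 24 intervals include 0, and the values lie between -0.50 and 0.49.

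The libraries at the ends of the range were the same for several of the genes, and the share of all genes is given beside each count. Control 1 was the lowest library of the 4-library table for 4 of the 8 genes, HLA-B, HLA-C, HLA-E and TAP1, as it was for 32.2% of all genes. Control 2 was the highest library of the 5-library table for 5 of the 8, HLA-B, HLA-E, B2M, TAP1 and TAPBP (43.7% of all genes), and the lowest for TAP2 and ERAP1 (37.1%). For B2M and TAP1 its high place depends on the deposited scaling. Control 2 had 7632 and 1933 reads of them, and wild type 3, at a similar depth, 8250 and 2150. All 4 libraries of the 4-library table were below all 5 of the other for B2M, TAP1, TAP2 and ERAP1, 4 of 8 against 30.3% of all genes, and above them for 0 of the 8 (23.7%). The ribosomal protein share of reads, a measure that varied with the tables too, was 13.7%, 5.60% and 10.6% in R213A 1 to 3, against 11.5%, 5.55% and 6.004% in wild type and 7.01%, 5.99% and 5.44% in control. It was higher in R213A 1, R213A 3 and wild type 1 than in control 1, as were HLA-B, HLA-C and HLA-E, and its part in their values was not tested.

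Markers of other cell types were at or near 0. The summed FPKM of 9 immune markers was 0.197 to 0.783 in R213A, 0.0753 to 0.286 in wild type and 0.0866 to 0.238 in control, and CD3E was at 0 in all libraries. That of 7 fibroblast markers was 0.0472 to 0.790, 0.0725 to 0.847 and 0.0541 to 0.871 FPKM in the same order, with FAP at 0 in all libraries, and that of 4 endothelial markers 0.129 to 0.522, 0.0834 to 0.758 and 0.164 to 1.03. In bulk RNA, fewer cells with a transcript and less transcript per cell cannot be told apart.

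The wider pathway was read from 11 lists of 101 genes, of which 82 were tested and 0 passed the adjusted threshold in limma in any comparison. At an unadjusted p under 0.05, 2 of the 82 were higher in R213A than in control, PSMB9 among them (1.28% of all genes were higher), and 0 lower (1.77%). HSPA5 was the 1 gene higher in wild type than in control (2.25%), with 0 lower (2.24%), and between R213A and wild type there were 0 higher (0.652%) and 0 lower (0.393%). Counts of higher genes in the lists below stand beside 5387 of all 11193 genes with a positive difference over both tables for R213A against control and 5180 for wild type against control, whatever their p.

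Of 8 other class I and class I-like heavy chains, 5 were tested, and HLA-G was at 0 in all libraries. MICB and MICA, stress ligands of the receptor NKG2D on natural killer cells, were high in control 2. MICB had an FPKM of 3.24, 8.61 and 3.91 in R213A, against 2.40, 7.83 and 8.65 in wild type and 5.95, 24.3 and 7.08 in control. HLA-F had 3.62, 2.04 and 2.19 FPKM in R213A, against 3.35, 2.43 and 2.61 in wild type and 1.27, 3.35 and 1.97 in control, with its low value in control 1 and a high one in control 2, as for HLA-B.

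The immunoproteasome replaces the catalytic subunits of the standard proteasome and favours peptides that class I can bind. The list read here held its inducible catalytic subunits together with proteasome activator subunits and an assembly factor, which are not all particular to it. All 7 genes of that list were higher in R213A than in control over both tables, with a median of 0.30, and in wild type than in control, with a median of 0.15, beside -0.02 and -0.03 over all genes. Within the 4-library table the medians were 0.71 and 0.26 (-0.04 and -0.07 over all genes). There 6 of 7 genes were higher in each comparison, beside 5353 and 5146 of all 11193 genes. In the 5-library table the medians were 0.02 and 0.13 (-0.02 and -0.01 over all genes). Here 4 and 6 of 7 were higher, beside 5219 and 5335 of all 11193 genes. Without control 2 the medians of the list were -0.01 and 0.08. PSMB9, an inducible catalytic subunit encoded next to TAP1, had an FPKM of 19.3, 9.13 and 9.96 in R213A, against 9.19, 8.87 and 9.03 in wild type and 6.18, 8.39 and 7.80 in control. Within each table its R213A and its wild-type libraries were above the control libraries, and the share of all genes like this was not counted. The difference between R213A and control was 0.61 ± 0.27 (adjusted p = 0.690 in limma). It was 1.06 among the 4 libraries, 0.16 among the 5 and 0.20 without control 2. PSMB8 differed by 0.43 (0.13 in the 5-library table without control 2) and the activator subunit PSME1 by 0.37 (-0.02). The 3 constitutive catalytic subunits PSMB5, PSMB6 and PSMB7, which the immunoproteasome replaces, had a median difference between R213A and control of 0.40 over both tables. It was 0.76 among the 4 libraries, 0.04 among the 5 and -0.01 once control 2 was left out.

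The 12 folding and translocation genes of the endoplasmic reticulum were all tested, and 11 of them were higher in wild type than in control, with a median of 0.23. By table, that median was 0.64 with the 4 libraries, 0.13 with the 5 libraries and 0.00 when control 2 was left out of them. HSPA5, the lumenal HSP70 chaperone BiP, had an FPKM of 194, 547 and 233 in R213A, against 894, 485 and 536 in wild type and 173, 318 and 500 in control. Wild type 1 was the highest of all libraries. The difference between wild type and control was 1.03 ± 0.44 (adjusted p = 0.757 in limma). By table it was 2.37 with the 4 libraries, 0.35 with the 5 libraries and 0.03 without control 2. CANX, calnexin, which holds new heavy chains until B2M joins, differed by -0.53 between R213A and wild type, by -1.02 in the 4-library table and by 0.04 in the other. Of the 9 trimming peptidases outside ERAP1, 3 were higher in R213A than in control (median -0.10) and 1 in wild type than in control (median -0.29), and LNPEP, which trims peptides in endosomes, differed by -0.23 and -0.36 over both tables and by 0.23 and -0.09 in the 5-library table without control 2.

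Among regulators, 8 of 9 genes of the SXY enhanceosome and NLRC5 relatives were tested, CIITA being the exception. This complex of RFX, NFY and CREB factors holds NLRC5 at class I promoters. 3 of the 8 were higher in R213A than in control (median -0.14) and 3 in wild type than in control (median -0.07), where the 5-library table without control 2 gave medians of 0.04 and 0.04. RFXANK had an FPKM of 69.2, 24.5 and 42.1 in R213A, against 65.4, 24.4 and 26.3 in wild type and 23.3, 21.5 and 25.0 in control, so that R213A 1, R213A 3 and wild type 1 stood above all others. NFYA was highest in control 2 and lowest in R213A 1, with 4.27, 9.85 and 7.06 FPKM in R213A, against 7.32, 8.997 and 10.3 in wild type and 9.91, 17.2 and 9.32 in control.

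Interferon signalling genes and IRFs, of which 14 of 17 were tested, had a median of -0.15 in both comparisons with control, with 4 and 5 genes higher, and medians of 0.00 and 0.03 in the 5-library table without control 2. JAK1, a kinase of interferon receptors, had an FPKM of 4.95, 23.1 and 7.63 in R213A, against 7.75, 22.8 and 21.2 in wild type and 12.2, 27.4 and 23.3 in control. In the 4-library table the R213A and wild-type libraries were below control 1, where the heavy chains were above it. JAK1 differed by -0.50 between R213A and control and by -0.33 between wild type and control, and by -0.01 and -0.08 in the 5-library table without control 2. Of the 6 NF-kB genes tested out of 7, 4 were higher in R213A and 5 in wild type than in control (medians 0.13 and 0.27, and 0.08 and 0.10 in the 5-library table without control 2). NFKBIA, the inhibitor IκBα, differed by 0.18 and 0.46 over both tables and by 0.08 and 0.11 in that subset.

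Genes for turnover and surface control of class I, 10 of 12 tested, had medians of 0.00 and -0.04 against control, with 5 and 3 higher. NBR1, an autophagy receptor that in pancreatic cancer cells is known to carry class I to lysosomes, had an FPKM of 7.89, 25.0 and 9.005 in R213A, against 9.51, 26.0 and 25.6 in wild type and 13.9, 28.1 and 26.4 in control. Its difference between R213A and control was -0.37 (adjusted p = 0.690 in limma), and -0.08 in the 5-library table without control 2. The 7 genes of PRC2 and other silencing factors, known to repress class I genes in some tumours, were all tested, with 2 higher in R213A (median -0.11) and 0 in wild type (median -0.14). SUZ12, a core subunit of PRC2, differed by -0.55 and -0.54 over both tables, and by -0.14 and -0.08 in the 5-library table without control 2. Of 10 class II presentation genes 1 was tested, HLA-DRB1 (0.434 to 3.06 FPKM), and their summed FPKM was 1.16 to 3.88 in R213A, 1.23 to 5.13 in wild type and 0.614 to 3.95 in control.

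**Figure D4:**
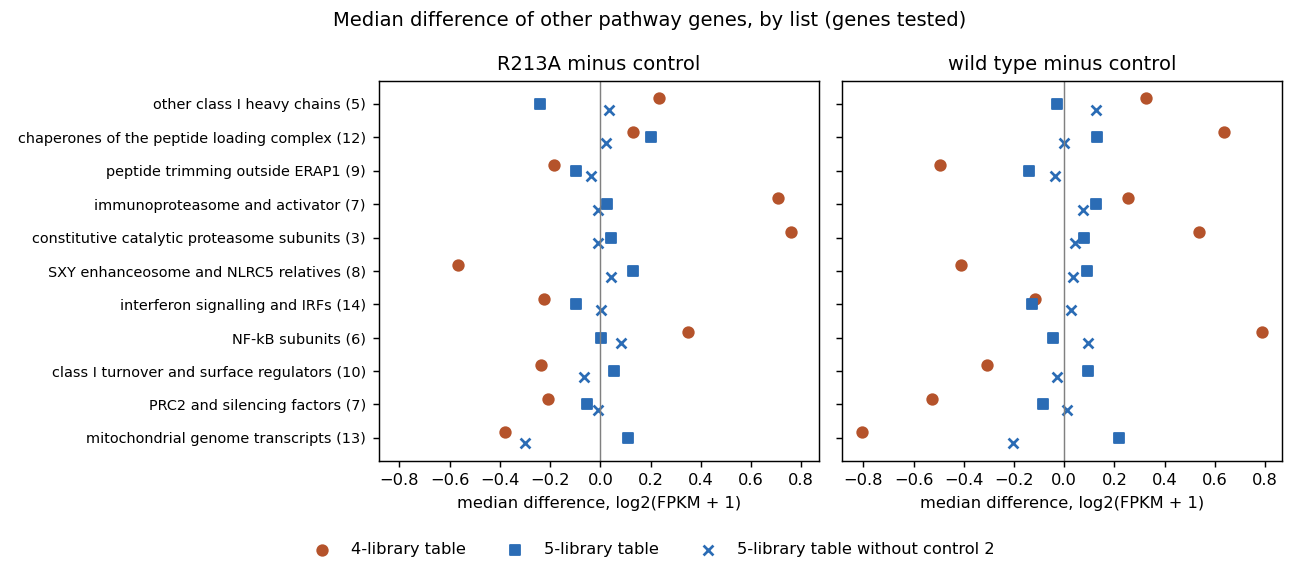
Median difference in log2(FPKM + 1) for 10 lists of other pathway genes and for mitochondrial transcripts (class II presentation, with 1 gene tested, is not drawn), with the number of genes tested in brackets, for R213A minus control and wild type minus control, by table as in the plot of differences within tables. Medians in the 4-library table reach 0.76 and -0.57 for R213A and 0.79 and -0.80 for wild type, while those of the 5-library table lie between -0.24 and 0.22.

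The genes with profiles most like the mean of the 8 tested genes were found by the root mean square distance between log2(FPKM + 1) profiles over the 9 libraries, each centred on its own table. The 5 nearest protein-coding genes were SF3B2 (0.025), TMEM8A (0.038), APMAP (0.039), TRPC4AP (0.040) and EIF2D (0.044), where the mean profile itself deviated from 0 by 0.106. That mean profile was lowest in control 1 (-0.22), highest in R213A 1 (0.18) and next in control 2 (0.11). R213A 1 (73.7) and control 2 (60.9) also had the highest FPKM times length per read, and the part of this scaling was not tested. The nearest gene of each member was RPL12 for HLA-B (distance 0.076), PEX16 for HLA-C (0.061), GRINA for HLA-E (0.045), TSPAN14 for B2M (0.054), INTS12 for TAP1 (0.040), EIF4G1 for TAP2 (0.047), PITX1 for TAPBP (0.040) and HSPA13 for ERAP1 (0.072). No member was the nearest gene of another, as members were left out of that search.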

How the data were processed

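Per the labels' protocols, TRIzol was used for extraction and TruSeq stranded mRNA libraries were made from some 500 ng of RNA. The authors deposited FPKM values per gene in 2 tables, with gene lengths and coordinates. The submitters' processing notes name hg38 and bcl2fastq. The aligner, the counter, its strand setting and the annotation were not given in the sources used here, and whether the tables mark separate cultures or runs is not stated. The listed coordinates equalled GENCODE 29 for 58690 of 58735 genes. FPKM times listed length gave whole reads for 100% of values (tolerance 0.01 reads). A median-of-ratios factor was the same for all libraries of a table (1.00 in each), so the deposited values leave no such difference within a table to correct, and levels across tables are not comparable beyond description.

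Since FPKM are not counts, differences were tested on log2(FPKM + 1) of the deposited values with limma 3.58.1 in R 4.3.3, with a mean-variance trend, group and table as terms, all 9 libraries and the 11193 genes whose mean reached 1 FPKM. Folds on this scale understate those of low genes. Benjamini-Hochberg adjustment ran over all genes (threshold 0.05). A second fit added the interaction of group and table. The procedure was tested on simulated data. Tables were handled with pandas 2.3.3 in Python 3.11.15.

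The 9 members and the lists were chosen with earlier results of these data known, so no list was tested. Of each list at most 4 genes could be named, those of smallest unadjusted p over the 3 comparisons, and markers or genes at or near 0 (such as KRT7, HLA-G and CIITA) were named after their values were seen; likeness was the root mean square distance described with its results. Alternatives changed the pseudocount (0.1, 0.5), the filter (none, mean of 5 FPKM), the scaling, the table term, the replicate block, the libraries, the trend, the unit (voom on recovered reads), the summing of rows that share a gene name and each library in turn. Some genes that the rule would name are not reported here.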

Additional observations from a re-analysis of the deposited data

Results flagged for a closer look

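The difference between wild type and control departed between the 4-library and the 5-library table for 125 of the 11193 genes tested, by a test of the interaction of group and table (limma, adjusted p under 0.05). None of the 8 tested class I genes was among them, and the nearest was HLA-B, with an adjusted p of 0.115. In the 4-library table this comparison rests on 1 library a group.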

How the results depend on the processing

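Across the alternatives, 489 of 552 recomputed differences of the 8 genes kept their sign, 63 did not, and 0 passed the threshold (smallest adjusted p 0.105, limma). Many of the 552 could not turn, so the count of kept signs is no measure of stability. The filter, the trend and the summing of rows left the differences unchanged. For wild type against control, so did the table term, the replicate block, the fit of 2 groups alone and the loss of an R213A library. Depth limits NLRC5 above all, with 31 reads in its lowest library, and the table split limits the rest, since the 4-library table has 1 control and 1 wild-type library.

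In the 5-library table alone, signs turned for R213A against control (HLA-C -0.16, HLA-E -0.37, B2M -0.046, TAPBP -0.25, ERAP1 0.023), wild type against control (HLA-B -0.10, HLA-E -0.35, TAP1 -0.027, TAP2 0.20, ERAP1 0.072) and R213A against wild type (HLA-C -0.22, HLA-E -0.021, B2M -0.024, TAPBP -0.020). In the 4-library table alone, they turned for R213A against control (TAP1 0.069, TAP2 -0.13) and R213A against wild type (HLA-B -0.18, HLA-E -0.11). Quantile normalization turned signs for R213A against control (HLA-E -0.14, B2M -0.048), wild type against control (HLA-E -0.017, ERAP1 0.016) and R213A against wild type (HLA-C -0.15, HLA-E -0.12). Dropping the table term did so for R213A against control (B2M -0.057, TAP2 -0.059). Fitting the 2 groups compared alone did so for R213A against control (TAP1 0.0024) and R213A against wild type (HLA-B -0.037, HLA-C -0.10, HLA-E -0.067). limma-voom on recovered reads did so for wild type against control (ERAP1 0.026) and R213A against wild type (HLA-B -0.00081, HLA-C -0.10, HLA-E -0.065).

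Leaving out 1 library at a time gave ranges that cross 0 for R213A against control (HLA-B -0.092 to 0.74, HLA-C -0.083 to 0.73, HLA-E -0.40 to 0.32, TAP1 -0.12 to 0.036), wild type against control (HLA-B -0.055 to 0.69, HLA-E -0.34 to 0.31, B2M -0.25 to 0.0031, TAP1 -0.0046 to 0.14, TAP2 -0.28 to 0.13, TAPBP -0.36 to 0.028, ERAP1 -0.20 to 0.19) and R213A against wild type (HLA-B -0.037 to 0.49, HLA-C -0.20 to 0.34, HLA-E -0.074 to 0.32, TAP1 -0.15 to 0.0069, TAP2 -0.054 to 0.36). The libraries whose loss turned the sign were control 1 (HLA-B, HLA-C and HLA-E for R213A against control, HLA-B, HLA-E, TAP2 and ERAP1 for wild type against control, and the 3 heavy chains for R213A against wild type), wild type 1 (TAP1 in all 3 comparisons, HLA-E, B2M and TAP2 for wild type against control, TAP2 for R213A against wild type), R213A 1 (HLA-E for R213A against control and the 3 heavy chains for R213A against wild type), control 2 (TAP1 for R213A against control, TAPBP for wild type against control, HLA-C for R213A against wild type), control 3 (HLA-E for wild type against control, HLA-C for R213A against wild type), wild type 2 (HLA-C and HLA-E for R213A against wild type) and wild type 3 (HLA-E for R213A against wild type).

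The number of genes called was 1 for R213A against control and 1 for wild type against control without a filter. The 4-library table alone, with 1 residual degree of freedom, called 184, 775 and 327 genes (R213A against control, wild type against control, R213A against wild type). Departures between tables without a filter numbered 1171, 1655 and 1262 in the same order, and under quantile normalization 297 for wild type against control. The cause of these shifts was not tested.

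Of the 9 pairs of libraries with the same number, the 7 within a table had deviations that correlated at 0.33 to 0.84, and the 2 that lie across tables, R213A 3 with wild type 3 and with control 3, at -0.70 and -0.65. These were deviations from group means without a table term, so the difference between tables enters them. The correlations therefore cannot tell whether the numbers pair the libraries, and the main fit did not pair them. With the replicate block, 0, 0 and 0 genes were called, 632, 285 and 125 at an unadjusted p under 0.05, and the medians of the 8 genes were 0.15, -0.01 and 0.14.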
